A study of Mus musculus with 123 samples.

Results

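The urea cycle and the nitrogen metabolism of periportal hepatocytes are described here by 10 genes: Nags, Cps1, Otc, Slc25a15, Ass1, Asl, Arg1, Gls2, Hal and Cyp2f2. The members were taken by gene symbol from the deposited expression table, and each symbol matched 1 of the 15398 genes. Liver RNA was measured in mice fed 1 of 2 diets, high in fat (HFD) or low in fat (LFD), that lived in Equal, Long or Short light, a photoperiod being the light schedule. Livers were taken every 4 h over 1 cycle, at zeitgeber times (ZT) 0, 4, 8, 12, 16 and 20. The libraries, 61 on HFD and 62 on LFD, form 36 groups of diet, photoperiod and time, of which 21 hold 3 libraries and 15 hold 4. The 6 arms, that is the 6 pairs of diet and photoperiod, hold 20 or 21 libraries each. The labels give no strain, sex, age, hours of light or length of feeding, and they do not say which light event ZT0 marks. They name the libraries as separate samples without saying that each is from another animal, and a p-value here reflects the spread of these samples only.

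The urea cycle turns the ammonia released from amino acids into urea and runs mainly in the periportal hepatocytes, those nearest the portal vein. Its first steps lie in the mitochondrion, where NAGS makes the activator of CPS1, CPS1 joins ammonia with bicarbonate, and OTC passes the product to ornithine. Citrulline then leaves in exchange for ornithine through the carrier encoded by Slc25a15, and in the cytosol ASS1, ASL and ARG1 complete the cycle and release urea. Around it, the liver glutaminase GLS2 frees ammonia from glutamine, histidine ammonia-lyase, encoded by Hal, frees it from histidine, and Cyp2f2, a cytochrome P450 gene, is a marker of the same zone.

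All 10 genes were well expressed. Values are log2 CPM, that is read counts scaled to the size of each library. Depth was 13.97 M reads (M, mega) in the shallowest library, 24.06 M at the median and 39.09 M in the deepest, so that even the smallest member value stood for 506 reads, for Nags. The 14 genes of a hepatocyte list, albumin among them, had mean levels of 11.71 to 12.34 log2 CPM over the libraries, and none of the list was missing from the table. In 19 libraries, 5 on HFD and 14 on LFD, a list of skeletal muscle genes or of pancreas acinar genes had a mean above 4 log2 CPM. Each call of a member below was also computed without them, while calls of other genes are given with all libraries only. A further 2 libraries, HFD Equal light ZT4 replicate 2 and ZT20 replicate 1, stood apart in the members themselves. They held the lowest Nags levels of all libraries (4.65 and 4.57, against 5.39 or more in the others) and the lowest Asl levels (7.91 and 8.06, against 8.23 or more). They also held the highest Otc levels (9.52 and 9.55, against at most 9.26). Transcripts of the mitochondrial genome, averaged over 7 genes, were higher in these 2 libraries (12.93 and 13.42 log2 CPM) than in any other, where they reached 12.72, and the part of this in the members' values was not tested. In bulk liver, fewer cells of a type and less RNA per cell cannot be told apart.

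Compared per kilobase of annotated exon, the members covered a wide range. The length used was that of all annotated exons of a gene, from 1 transcript for Cps1, 8 for Asl and 11 for Gls2. Levels per kb therefore depend on the annotation, and the order with other lengths was not tested. Cps1 (chromosome 1, 67123026 to 67231259, plus strand, GRCm38) stood highest with a mean of 10.14 log2 CPM per kb, followed by Ass1 (9.60), Arg1 (9.15) and Cyp2f2 (8.81). Below a gap of 1.84 ± 0.39 (SD over libraries) came Gls2 (6.98), Asl (6.97), Otc (6.83), Hal (6.38) and Slc25a15 (6.12). Nags was lowest at 4.49. The order of Gls2, Asl and Otc was not stable from library to library: Gls2 exceeded Asl in 61 libraries and was below it in 62, and Asl exceeded Otc in 72. Cyp2f2 exceeded Gls2, and Slc25a15 exceeded Nags, in every library. Without correction for length, Cps1 averaged 12.62 log2 CPM and ranked as number 13 of all genes, and Nags averaged 5.99 and ranked as number 2157.

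The share of a member's variance that lay between the 36 groups was largest for Asl (70.8%) and smallest for Cyp2f2 (34.3%). The spread within groups was smallest for Slc25a15 (SD 0.15 log2) and largest for Asl (0.34).

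The first comparison asked how diet changed these genes. Over all photoperiods and times, Otc and Slc25a15 rose (1.14- and 1.05-fold) and Cps1 fell (1.12-fold) on HFD, while the other 7 did not pass the test. Limma with Benjamini-Hochberg adjustment over all 14397 genes tested called 3 of 10 members at an adjusted p under 0.05, against 25.5% of all genes. Of these, 2 were higher, against 12.9% of all genes, and 1 was lower, against 12.6%. The members' median difference was 0.02 on the log2 scale and that of all genes was -0.00376.

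Otc (chromosome X, 10252305 to 10321024, plus strand) encodes ornithine transcarbamylase and changed most. On HFD its level ranged from 8.56 over a median of 9.04 to 9.55 log2 CPM (mean 9.01 ± 0.19, SD, n = 61), and on LFD from 8.45 over 8.81 to 9.26 (8.82 ± 0.18, n = 62). The 2 ranges overlapped over most of their length. The difference was 0.19 ± 0.033 on the log2 scale (SE; 95% interval 0.12 to 0.25; 1.14-fold; limma, adjusted p = 5.31e-06), and the HFD mean was higher in 16 of 18 matched pairs of photoperiod and time. In 3 of the 18 pairs every HFD library was above every LFD library. Without the 2 HFD Equal light libraries named above it was 0.17 (adjusted p = 5.2e-06), and without the 19 libraries of the marker check 0.18 (adjusted p = 0.00024).

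Its promoter is shown because it is the member with the clearest diet difference. RefSeq (GRCm38.p6) gave windows from 250 bases before to 50 after a start for 6 of the 10 members, Nags, Otc, Slc25a15, Ass1, Hal and Cyp2f2, and none was matched for Cps1, Asl, Arg1 and Gls2. Each window was searched on both strands for 9 motifs, none of which lies within another. The E-box bound by the clock activators, CACGTG, was in 7.15% of the 32851 such windows of all genes. The D-box TTATGTAA was in 0.938% of them, the cyclic AMP response element TGACGTCA in 1.79%, the C/EBP palindrome TTGCGCAA in 0.183% and the HNF4 motif CAAAGTCCA in 0.475%. The CCAAT box, spelled CCAAT, was in 37.4%, the GC box GGGCGG in 35.7%, the glucocorticoid response motif AGAACA in 19% and the TATA box TATAAA in 13.6%. The 250 bases before the start, at chrX:10252055-10252304 on the plus strand, hold none of these motifs, which says only that the letters are not in this window.
Otc: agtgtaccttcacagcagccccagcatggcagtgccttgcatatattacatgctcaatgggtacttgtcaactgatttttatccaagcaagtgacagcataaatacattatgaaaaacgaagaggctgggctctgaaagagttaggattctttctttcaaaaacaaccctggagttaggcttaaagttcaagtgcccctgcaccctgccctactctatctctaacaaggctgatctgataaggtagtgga

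Cps1, which encodes the first enzyme of the cycle, ranged on HFD from 11.54 to 13.13 log2 CPM (mean 12.54 ± 0.29, SD, n = 61) and on LFD from 11.80 to 13.16 (12.70 ± 0.28, n = 62). It was lower on HFD by 0.16 ± 0.046 on the log2 scale (1.12-fold; limma, adjusted p = 0.00493) and in 16 of 18 matched pairs, 3 of them without overlap. The call was lost without replicate 1 of each group (-0.14, adjusted p = 0.113) and without replicate 2 (-0.14, adjusted p = 0.0564). Slc25a15 (chromosome 8, 22375551 to 22398597, minus strand) was higher on HFD by 0.07 ± 0.028 (8.65 ± 0.16 against 8.58 ± 0.20; adjusted p = 0.0486) and in 12 of 18 pairs. That call lay at the threshold and was lost in 8 of 14 alternatives, among them the fit without the 19 libraries (0.06, adjusted p = 0.181) and those without replicate 1 (0.05, adjusted p = 0.317) or 4 (0.05, adjusted p = 0.252).

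The enzymes of the cytosol did not pass the test between diets. The differences of HFD and LFD were 0.06 for Ass1 (adjusted p = 0.392), 0.02 for Asl (0.829) and -0.03 for Arg1 (0.692), with 95% intervals that stayed within -0.10 and 0.16. For Nags, which makes the CPS1 activator, it was 0.01 (interval -0.07 to 0.10). Gls2 gave -0.03 (adjusted p = 0.514), Hal 0.06 (0.231) and Cyp2f2 -0.09 (unadjusted p = 0.0463, adjusted 0.13).

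**Figure D1:**
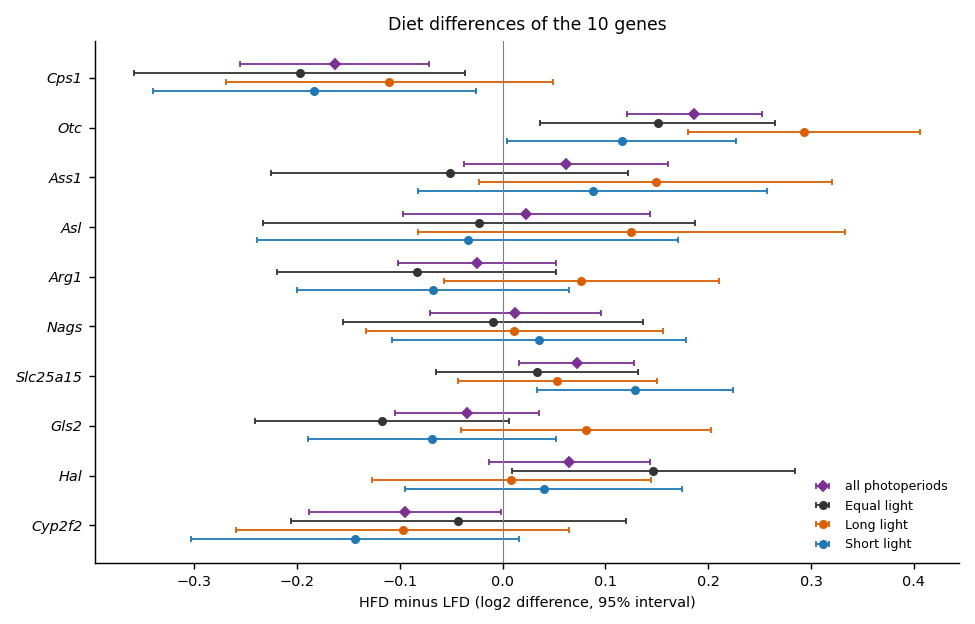
Difference of HFD minus LFD in log2 CPM for each of the 10 genes (horizontal axis, bars are 95% intervals of limma), over all photoperiods and within Equal, Long and Short light. Otc lies above 0 with its largest difference in Long light, and Cps1 lies below 0 over all photoperiods.

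Within photoperiods the diet difference of Otc was 0.29 ± 0.057 in Long light (1.23-fold; adjusted p = 0.00038), where it was the 1 member called of 10 against 4.86% of all genes. In that light the LFD libraries ranged from 8.45 to 9.03 (8.75 ± 0.14, n = 21) and the HFD libraries from 8.75 to 9.26 (9.03 ± 0.16, n = 20). They shared the range from 8.75 to 9.03, which held the LFD median of 8.76, while the HFD median was 9.07. In Equal light 0 members were called by limma (6.85% of all genes). At an unadjusted p under 0.05 stood 3 members, against 20.1% of all genes. The difference was 0.15 for Otc (limma, adjusted p = 0.0988) and -0.20 for Cps1 (0.134). With the library number of the titles as a covariate, that of Otc was 0.19 (limma, adjusted p = 0.0207). The 2 highest Otc levels of all libraries, 9.52 and 9.55, are in HFD Equal light, and both values include them. In Short light limma called 0 members (6.88% of all genes). At an unadjusted p under 0.05 stood 3, against 22.7% of all genes. The differences were 0.12 for Otc (limma, adjusted p = 0.202), -0.18 for Cps1 (0.146) and 0.13 for Slc25a15 (0.0864). The difference between photoperiods in the diet effect was itself tested, and limma called 0 members and 0 of all genes (0%), with unadjusted p = 0.0693 for Otc and 0.0649 for Gls2. Across all genes 3.35% had an unadjusted p under 0.05 in that test. Markers of other cells moved with diet too: 11 of 12 pancreas acinar genes were called lower on HFD at an adjusted p under 0.05, against 12.6% of all genes, with list means of -2.77 to 5.40 log2 CPM on HFD and -2.80 to 8.23 on LFD. The list of macrophages and Kupffer cells had 7 of 10 genes called higher on HFD, against 12.9% of all genes, with means of 3.81 to 5.36 on HFD and 3.43 to 5.25 on LFD. The part of the macrophage genes in the members' differences was not tested.

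**Figure D2:**
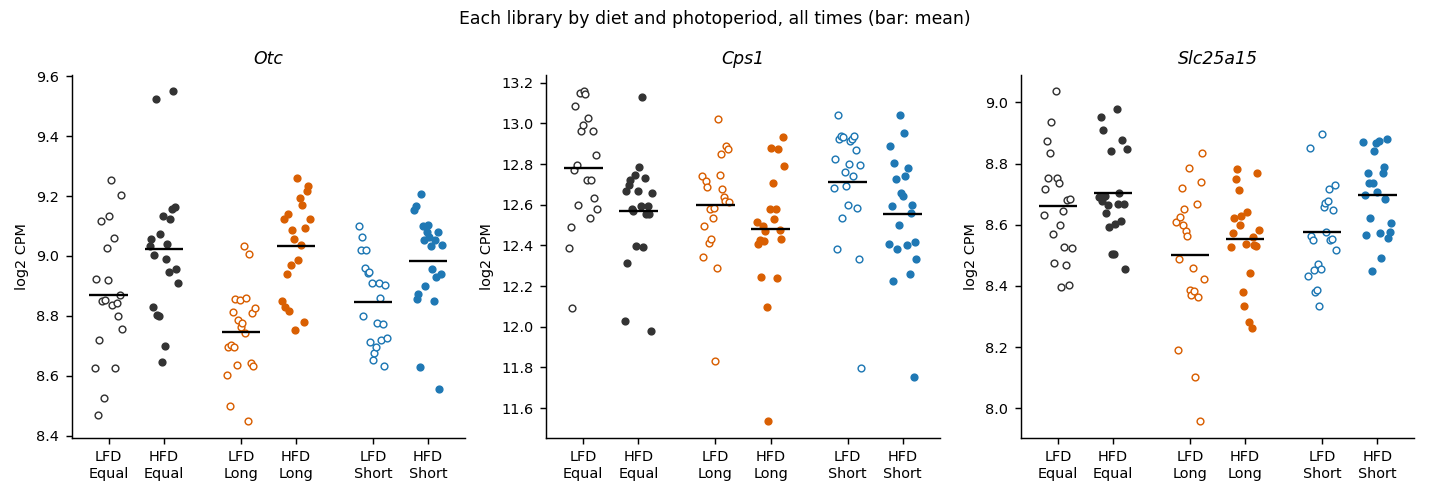
Log2 CPM of Otc, Cps1 and Slc25a15 in every library by arm (points, 1 per library; bars, arm means), with LFD and HFD side by side in each photoperiod. The Otc points of HFD Long light sit between 8.75 and 9.26 and those of LFD Long light between 8.45 and 9.03.

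Photoperiod was compared next for the level averaged over the 6 times. Slc25a15 was lower in Long than in Equal light by 0.16 ± 0.035 on the log2 scale (8.53 ± 0.19, n = 41, against 8.68 ± 0.16, n = 40; limma, adjusted p = 0.0488). It was the 1 member called of 10, against 0.0278% (4 genes) of all genes. The call was lost in 9 of 14 alternatives, with -0.11 (adjusted p = 0.253) without the 19 libraries, -0.16 (0.062) without the 2 HFD Equal light libraries, and -0.18, -0.16 and -0.14 without replicate 1, 2 and 3 (0.217, 0.0593 and 0.597). Ass1, argininosuccinate synthase, had a difference of -0.20 and Nags of 0.16 in the same comparison (adjusted p = 0.164 for both). At an unadjusted p under 0.05 stood 6 members, against 14.6% of all genes.

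Between Long and Short light limma called 0 members and 0% of all genes. Below 0.05 without adjustment were 3 members, against 2.79% of all genes. Their differences were -0.22 for Ass1 (limma, unadjusted p 0.000447), -0.16 for Gls2 (0.000498) and -0.10 for Slc25a15 (0.00365), and none passed after adjustment. The estimates of 8 of 10 members were below 0, with a median of -0.08 where that of all genes was 0.00125. Short against Equal light gave 0 calls by limma as well (0.00695% of all genes), with Asl and Nags at an unadjusted p under 0.05, against 16.6% of all genes. These comparisons share libraries, Long and Equal light each entering more than 1 of them. Within single diets, 0 of the 60 tests of a member between 2 photoperiods passed. Of all genes, 0 or 1 (at most 0.00695%) passed in each of these comparisons.

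**Figure D3:**
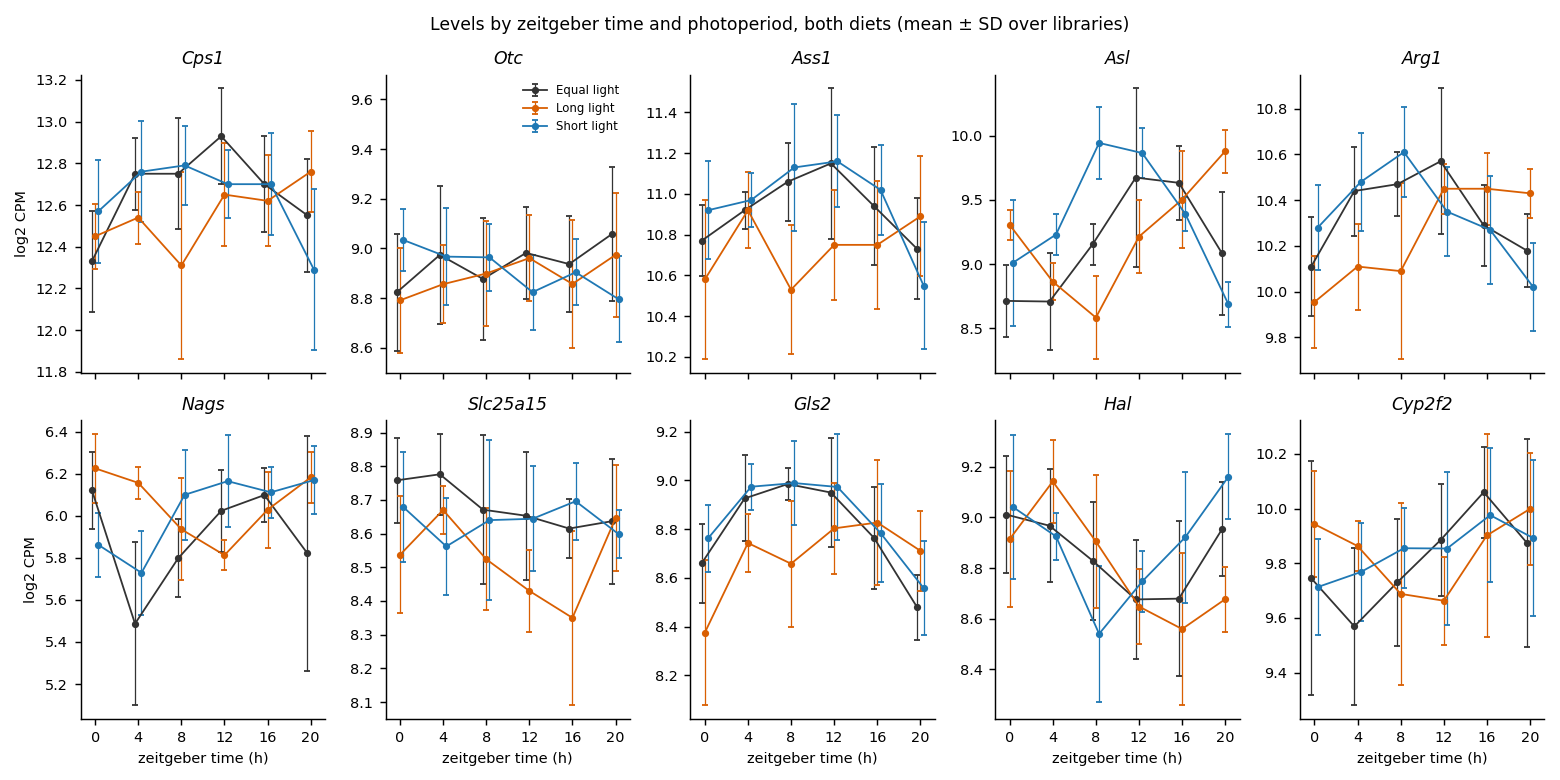
Mean log2 CPM ± SD by zeitgeber time (h) for the 10 genes in Equal, Long and Short light, over both diets (6 to 8 libraries per point). Asl is highest at ZT12 in Equal, ZT20 in Long and ZT8 in Short light.

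The third comparison was that of time. A cosine of 24 h was fitted in each arm and its amplitude, from the mean to the peak on the log2 scale, was tested with limma. Asl, which splits argininosuccinate into arginine and fumarate, was rhythmic in 6 of 6 arms, which 4.11% of all genes were. Arg1, Gls2 and Hal were rhythmic in 4 arms, and 12.3% of all genes were in 4 or more. Nags was rhythmic in 3 arms, and 18.6% of all genes were in 3 or more. Cps1, Ass1 and Cyp2f2 were rhythmic in 1 arm, and 51.5% of all genes were in 1 or more. Otc and Slc25a15 were rhythmic in 0.

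By arm, 7 of 10 members were rhythmic in LFD Equal light (20.9% of all genes), 4 in LFD Long (23.6%) and 4 in LFD Short light (27.1%). On HFD it was 2 in Equal (16.5%), 3 in Long (21.8%) and 4 in Short light (14.1%). The count in LFD Equal light moved most with the libraries used: it was 2 without the 19 libraries, and 3, 3 and 2 without replicate 1, 2 and 3. In LFD Long light it was 2 without the 19 libraries and without replicate 1 or 3. The HFD Equal light count was 0 without replicate 3 and 1 without replicate 2. It was 2 without replicate 1 in LFD Short light and 1 without replicate 3 in HFD Long light. In HFD Short light it was 2 without replicate 1 or 3. The shares of all genes in these smaller fits are not given, so the drops are not read as a trait of the members. The test of a difference of rhythm between the diets called 0 members and 1 gene in all (0.00695%). Its smallest unadjusted p among the members was 0.069, for Hal.

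**Figure D4:**
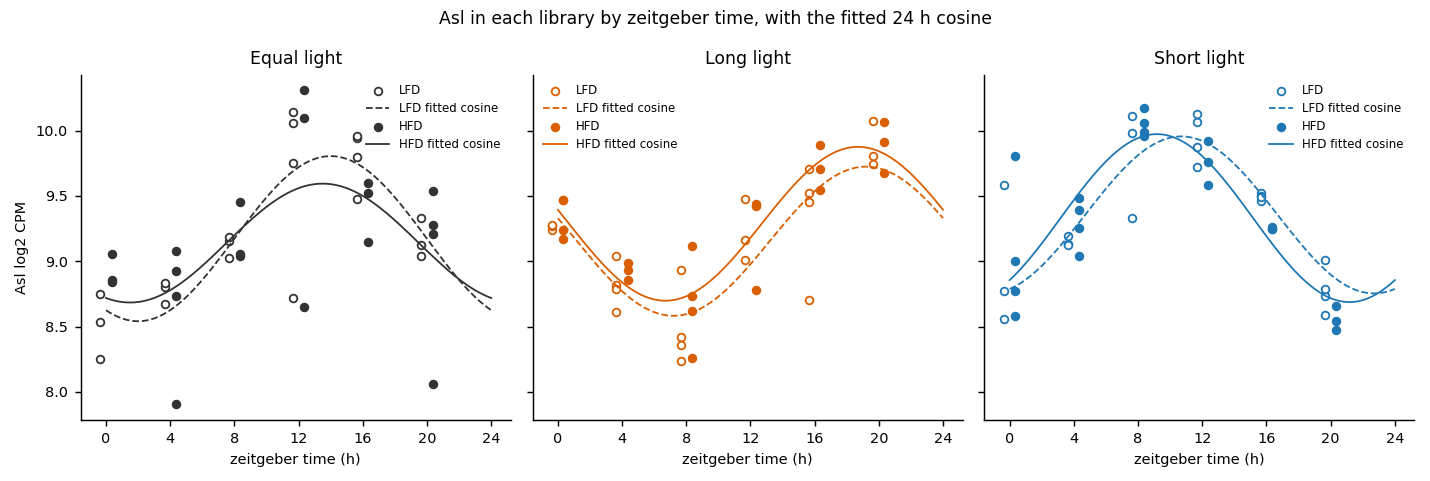
Asl level (log2 CPM) against zeitgeber time (h) in each of the 6 arms, with each library as a point and the fitted 24 h cosine as a line. The fitted amplitudes lie between 0.46 in HFD Equal and 0.64 in HFD Short light.

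Asl (chromosome 5, 130011258 to 130029247, minus strand) had the largest swing. In HFD Short light its 4 libraries at ZT8 were at 9.96, 9.99, 10.06 and 10.18 log2 CPM and its 3 libraries at ZT20 at 8.48, 8.66 and 8.55, a fold of 2.80 between the means. In LFD Long light the high time was ZT20, at 10.08, 9.81 and 9.75, and the low time ZT8, at 8.93, 8.36, 8.42 and 8.23 (2.62-fold). Here and for the members below, the high and low times are those of the highest and lowest group mean in the arm. This choice itself favours ranges that do not overlap. Overlap was also absent where no rhythm was called, as for Slc25a15 in HFD Short light (amplitude 0.04; limma, adjusted p = 0.839). Absence of overlap is therefore a description and not a test of rhythm. For Asl the high and low times did not overlap in 5 of 6 arms. They overlapped in HFD Equal light, where the libraries of ZT12 lay between 8.65 and 10.31 and those of ZT4 between 7.91 and 9.08. Adjusted p over the arms ran from 3.49e-06 to 0.00362, and the call was lost only in HFD Equal light, without replicate 2 (of the 2 libraries that stood apart, this leaves out the ZT4 one) or replicate 3, where adjusted p reached 0.108. Without the 2 libraries that stood apart the adjusted p in that arm was 0.0209.

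Arg1 (chromosome 10, 24915221 to 24927484, minus strand), the arginase that releases urea, was rhythmic in the LFD Equal, LFD Long, HFD Long and HFD Short arms. In HFD Short light its libraries lay between 10.53 and 10.96 at ZT8 and between 9.87 and 10.24 at ZT20, without overlap (1.59-fold; amplitude 0.33 ± 0.068; adjusted p = 0.000795). In LFD Long light the ranges of the high time, ZT16 (10.17 to 10.57), and of the low time, ZT0 (9.60 to 10.22), overlapped narrowly (amplitude 0.22; adjusted p = 0.0257). The HFD Short light call passed in 15 of 15 alternatives. The LFD Long light call was lost without the 19 libraries and without replicate 1, 2 or 3 (adjusted p up to 0.213), the LFD Equal light call without the 19 libraries and without replicate 1 or 3, among others (up to 0.607), and the HFD Long light call without replicate 3 (0.105).

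Nags (chromosome 11, 102145513 to 102149477, plus strand) was rhythmic in the 3 LFD arms. In LFD Short light it stood at 5.39, 5.57 and 5.73 at ZT4 and at 6.38, 6.54, 6.07 and 6.18 at ZT12, without overlap (1.66-fold; amplitude 0.29 ± 0.078; adjusted p = 0.00928). On HFD the amplitudes were 0.18, 0.16 and 0.12 in Equal, Long and Short light and did not pass the test; the difference between diets gave an unadjusted p of 0.417. Of the LFD calls, that in Short light was lost only without replicate 1 (adjusted p = 0.0927), while those in Equal and Long light were lost in 5 and 7 of 15 alternatives, the 19 libraries and replicates 2, 3 and 4 among those left out (up to 0.296 and 0.226). Of its 52-base windows, 13.4% lie in the antisense transcript Gm11586, which averaged -0.66 log2 CPM, and the sources used here do not say whether the counting used strand. Its promoter, at chr11:102145263-102145512 on the plus strand, is shown with GGGCGG starting 132 bases before the start, and its reverse complement 41 bases before it, in capitals; a match is a description and not a site.
Nags: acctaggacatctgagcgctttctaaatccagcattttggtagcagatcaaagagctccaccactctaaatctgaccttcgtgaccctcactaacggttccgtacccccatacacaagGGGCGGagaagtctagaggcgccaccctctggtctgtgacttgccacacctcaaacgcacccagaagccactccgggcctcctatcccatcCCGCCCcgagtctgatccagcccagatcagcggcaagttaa

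Ass1 (chromosome 2, 31470207 to 31520672, plus strand), which joins citrulline with aspartate, was rhythmic in HFD Short light, at 11.27 to 11.43 at ZT8 against 10.13 to 10.88 at ZT20 (1.69-fold; amplitude 0.31 ± 0.086; adjusted p = 0.0238). That call was lost without the 19 libraries and without replicate 1 or 3, with adjusted p up to 0.273. It shares 38.1% of its 52-base windows with Gm5424, a processed pseudogene, whose level was 2.22% to 3.61% of that of Ass1, so the 2 cannot be fully separated. The Ass1 promoter, at chr2:31470020-31470269 on the plus strand, is shown because it is 1 of 2 members' windows with an E-box, the other being that of Slc25a15. Capitals mark GGGCGG, 63 bases before the start, and CACGTG, 36 bases before it.
Ass1: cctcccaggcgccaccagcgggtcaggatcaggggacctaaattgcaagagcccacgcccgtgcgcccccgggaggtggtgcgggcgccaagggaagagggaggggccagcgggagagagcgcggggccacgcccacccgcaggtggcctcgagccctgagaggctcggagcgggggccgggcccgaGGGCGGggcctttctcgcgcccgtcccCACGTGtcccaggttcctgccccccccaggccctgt

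Cps1 was rhythmic in LFD Equal light, where ZT12 (12.72 to 13.16) did not overlap ZT0 (12.09 to 12.49; amplitude 0.26 ± 0.082; adjusted p = 0.0394). The call was lost without the 19 libraries and without replicate 1, 2 or 3, with adjusted p up to 0.493. Otc had amplitudes of 0.05 to 0.12 and Slc25a15 of 0.04 to 0.13 over the 6 arms, and neither passed the test in any of them.

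Gls2 (chromosome 10, 128194457 to 128210004, plus strand), the glutaminase of periportal hepatocytes, was rhythmic in both Equal and both Short light arms. In LFD Equal light its ZT4 libraries lay between 9.04 and 9.06 and its ZT20 libraries between 8.41 and 8.58 (1.46-fold; amplitude 0.23; adjusted p = 0.0228). In HFD Equal light the amplitude was 0.27 ± 0.063 (adjusted p = 0.00369). The call in LFD Equal light was lost without the 19 libraries and without replicate 1, 2 or 3 (adjusted p up to 0.196), and that in LFD Short light without the 19 libraries and without any 1 replicate (up to 0.241). On HFD it was lost without replicate 3 in Equal (0.0842) and without replicate 1 or 3 in Short light (up to 0.114).

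Hal (chromosome 10, 93488768 to 93519304, plus strand) was rhythmic in the 3 LFD arms and in HFD Long light. In LFD Short light its ZT8 libraries were at 8.13, 8.55 and 8.32 and its ZT20 libraries at 9.36, 9.21, 9.36 and 8.95, without overlap (1.84-fold; amplitude 0.35 ± 0.066; adjusted p = 0.000102). The calls in LFD Long and LFD Short light passed in 15 of 15 alternatives, and that in LFD Equal light was lost only without replicate 2 (adjusted p = 0.136). In HFD Equal light its amplitude was 0.06 and did not pass. The HFD Long light call (amplitude 0.22; adjusted p = 0.0445) was lost in 7 of 15 alternatives, among them those without each replicate in turn and without the 19 libraries, with adjusted p up to 0.366. Its promoter, at chr10:93488518-93488767 on the plus strand, is shown for contrast with those of the other rhythmic members. It is the only window of the 6 matched members with CCAAT (64 bases before the start) or TATAAA (28 bases before it, on the other strand, so printed as its reverse complement), both in capitals.
Hal: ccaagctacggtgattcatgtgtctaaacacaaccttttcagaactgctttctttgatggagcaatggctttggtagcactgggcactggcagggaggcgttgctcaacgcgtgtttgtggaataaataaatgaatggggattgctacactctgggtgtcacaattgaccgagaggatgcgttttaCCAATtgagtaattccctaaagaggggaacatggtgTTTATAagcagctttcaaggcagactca

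Cyp2f2 (chromosome 7, 27119909 to 27133660, plus strand) was rhythmic in LFD Equal light, at 10.08 to 10.17 at ZT20 and 9.39 to 9.82 at ZT4 (1.51-fold; amplitude 0.30 ± 0.078; adjusted p = 0.00924). Without the 19 libraries, and without replicate 1 or 3, this call was lost, with adjusted p up to 0.23. Of its 52-base windows 8.8% are shared with the antisense transcript Gm15883, which averaged 3.76 log2 CPM.

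The test of a difference of rhythm between the photoperiods called 9 of 10 members, all but Otc (adjusted p = 0.221), against 49.1% of all genes. Without the 19 libraries it called 5, and without replicate 3 also 5, the shares of all genes in these smaller fits not being given. Cps1, Asl, Arg1, Nags and Hal passed in 14 of 14 alternatives, with adjusted p of 9.92e-16 for Asl, 7.1e-07 for Arg1, 8.73e-06 for Hal, 0.000421 for Nags and 0.000596 for Cps1. Gls2 (0.00471), Cyp2f2 (0.0241), Ass1 (0.0275) and Slc25a15 (0.0467) were each lost in 2 to 5 alternatives. Each was lost without the 19 libraries and without replicate 3, with adjusted p up to 0.0803, 0.165, 0.116 and 0.41.

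The peaks of the fitted cosines, averaged over both diets, came latest in Long and earliest in Short light for 7 members, Asl, Arg1, Cps1, Gls2, Nags, Cyp2f2 and Hal, not all of these steps being larger than their errors. The peak of Otc was at 16.3 ± 3.38 h in Equal and 13.3 ± 2.58 h in Long light. That of Slc25a15 was at 3.28 ± 1.76 and 2.01 ± 1.11 h. These steps, -2.94 ± 4.26 and -1.27 ± 2.08 h, are smaller than their errors, so that no order is read for these 2 genes. The amplitude did not pass the test for Otc in any photoperiod, nor for Slc25a15 in Equal or Short light. Ass1 stood in the order of the 7 members too, but its Long light peak, 19.7 ± 3.79 h, is poorly determined (amplitude 0.06, limma adjusted p = 0.668). Asl peaked at 13.8 ± 0.52 h (SE) in Equal, 19 ± 0.48 h in Long and 9.90 ± 0.45 h in Short light. Its highest mean levels, in the same libraries as the fit, were 9.67 log2 CPM at ZT12 in Equal, 9.88 at ZT20 in Long and 9.94 at ZT8 in Short light. In Equal light ZT16 was close to ZT12, with 9.63. The peak of Arg1 was at 9.51 ± 0.86, 15.4 ± 0.71 and 7.30 ± 0.73 h in Equal, Long and Short light. For Cps1 it was at 10.6 ± 0.97, 18.1 ± 1.42 and 8.11 ± 1.04 h, the Long light amplitude averaged over the diets not passing the test (adjusted p = 0.0547). Gls2, in contrast, peaked at 8.49 ± 0.69 h in Equal and 8.01 ± 0.79 h in Short light, a difference smaller than its error, and at 13 ± 1.07 h in Long light.

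Nags and Cyp2f2 peaked later than these, at 16.5 ± 1.06 and 16.1 ± 1.02 h in Equal light. In Long light they peaked at 23.3 ± 1.04 and 21.6 ± 1.2 h, and in Short light at 14.7 ± 1.02 and 14.7 ± 2.28 h. The Short light amplitude of Cyp2f2 was 0.09 and did not pass the test (limma, adjusted p = 0.359), so that its peak there is poorly determined. In Equal light the mean of Nags was 6.10 log2 CPM at ZT16, 5.82 at ZT20, 6.12 at ZT0 and 5.49 at ZT4. The highest mean was thus not at the fitted peak and came just before the lowest. The 2 libraries that stood apart, at ZT4 and ZT20 of HFD Equal light, were low in Nags and Cyp2f2, and the Equal light peaks include them. Hal peaked near the turn of the cycle, at 0.94 ± 1.06 h in Equal, 3.84 ± 0.68 h in Long and 21.2 ± 0.67 h in Short light. The correlation of Hal and Asl over the 36 group means was -0.67, a description over means that share times and photoperiods.

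**Figure D5:**
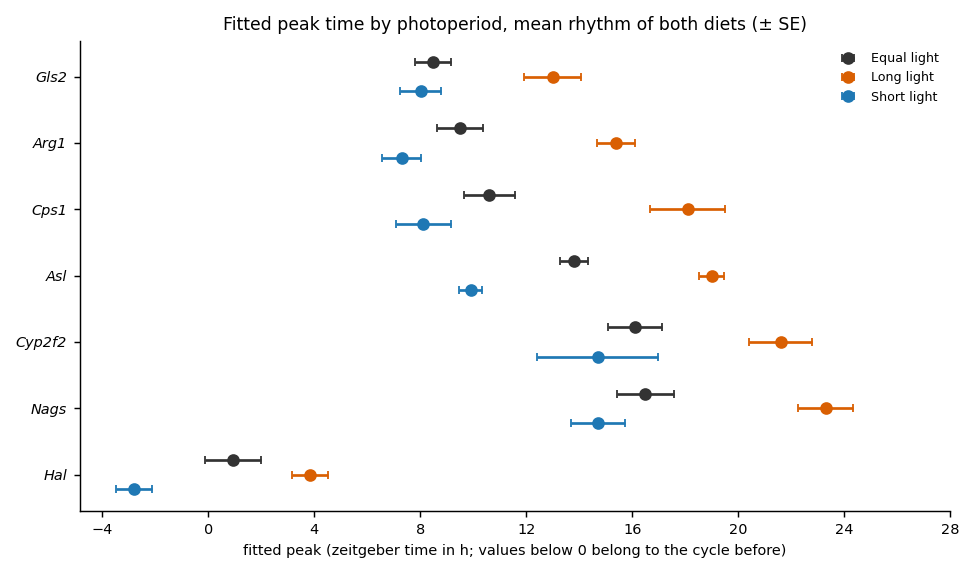
Fitted peak time (h after ZT0, bars ± SE) of 7 genes in Equal, Long and Short light over both diets; values below 0 belong to the cycle before. Asl moves from 9.90 h in Short over 13.8 h in Equal to 19 h in Long light, and the other genes stand in the same order, although Cyp2f2 in Short light and Cps1 in Long light had amplitudes that did not pass the test.

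From Short to Long light the peak moved by 9.06 ± 0.66 h for Asl, 8.06 ± 1.02 h for Arg1, 8.59 ± 1.45 h for Nags, 10 ± 1.76 h for Cps1 and 6.65 ± 0.95 h for Hal. In 13 clock genes, Arntl, Per and Nr1d members among them, the same shift had a median of 8.23 h and ranged from 6.80 to 8.82 h. Gls2 moved by 4.95 ± 1.32 h (95% interval 2.36 to 7.55 h). From Equal to Long light the shift was 5.15 ± 0.70 h for Asl, 5.85 ± 1.12 h for Arg1, 7.51 ± 1.71 h for Cps1 (95% interval 4.15 to 10.9 h), 6.81 ± 1.49 h for Nags (3.90 to 9.72 h), 4.47 ± 1.27 h for Gls2 and 2.90 ± 1.25 h for Hal, beside a median of 4.61 h (3.22 to 5.53 h) in the clock genes. From Equal to Short light it was -3.90 ± 0.68 h for Asl, -3.74 ± 1.25 h for Hal, -2.51 ± 1.42 h for Cps1, -2.21 ± 1.13 h for Arg1, -1.78 ± 1.47 h for Nags and -0.48 ± 1.04 h for Gls2, beside -3.39 h (-5.01 to -2.60 h). The 2 last shifts share the Equal light libraries, among them the 2 that stood apart with low Nags. Differences between a member's shift and that of the clock genes were not tested. Because the labels do not give the light event at ZT0, a shift of the rhythm and a shift of the time scale between photoperiods cannot be told apart.

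The members did not move as 1 block. Over the 36 group means, 23 of the 45 pairs of members had a positive correlation, with a median of 0.01, and within groups 36 of 45 did, with a median of 0.21. These are descriptions over points that share arms and libraries. The closest pairs over group means were Arg1 and Gls2 (0.81), Ass1 and Gls2 (0.79) and Cps1 and Arg1 (0.77). Within groups Ass1 and Gls2 remained close (0.84), and Otc and Nags were at -0.37. Without HFD Equal light ZT4 replicate 2 and ZT20 replicate 1, the libraries lowest in Nags and highest in Otc, the value of Otc and Nags within groups was -0.11 and that of Ass1 and Gls2 0.84, and 37 of 45 pairs were positive. Among all 9970 other genes with a mean of at least 2 log2 CPM, those whose profile over the 36 means was most like the average of the members were Aldh1l1 (Pearson r 0.85), Gm5424 (0.85), Atp5a1, Ddt and Sdhb (each 0.82). Of these 5, Gm5424 is the pseudogene copy of Ass1, and 3 stayed among the first 5 without the 19 libraries. The lowest values were those of Cryzl1 (-0.79), Adgrg3 (-0.76) and Agtr1a (-0.75).

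The genes around the cycle were compared between the diets by the same test. Of 26 tested genes of nitrogen supply (aminotransferases, amino acid carriers and neighbours of the cycle) 14 were higher and 3 lower on HFD, against 12.9% and 12.6% of all genes, with a median of 0.12 on the log2 scale. Those with the smallest p were Oat, ornithine aminotransferase (0.60; adjusted p = 1.67e-11), the glutamate carrier Slc1a2 (0.35; 2.13e-06), Aqp9, a channel for glycerol and urea (0.20; 7.8e-05), and Glul, glutamine synthetase (0.21; 9.71e-05). Oat, Slc1a2 and Glul are also in the list of pericentral markers, the genes of hepatocytes near the central vein. In that list 12 of 16 genes were higher and 0 lower on HFD, with a median of 0.29. In a list of other periportal markers 3 of 18 were higher and 1 lower, with a median of 0.10, counts near the shares of all genes. Pigr (0.28), Gldc of the glycine cleavage system (0.19; adjusted p = 0.00193) and Uroc1 rose there, and Cdh1, E-cadherin, fell by 0.31 on the log2 scale (adjusted p = 0.00181).

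Of 9 genes of histidine and serine breakdown, Uroc1, which follows Hal in histidine breakdown, rose by 0.10 on the log2 scale on HFD (adjusted p = 0.0136), Shmt2 rose by 0.14 (0.0174) and Sdsl fell by 0.17 (0.0339), so that 3 of 9 were called, against 25.5% of all genes. Of 15 genes for regulators of the cycle, Creb3l3 (0.23; adjusted p = 9.59e-06) and Ppara (0.26; 0.000129) rose. Ppargc1a, a coactivator of fasting genes, fell by 0.33 on the log2 scale (0.000224) and Sp1 by 0.09 (0.00837). The remaining 11 regulators, Cebpb, Foxo1 and Hnf4a among them, did not pass the test, and the 4 called of 15 are a share near that of all genes.

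Rhythm was also tested in the genes around the cycle. Of the 26 nitrogen supply genes, 19 differed in rhythm between photoperiods, against 49.1% of all genes, and 0 between diets. The amino acid carriers Slc38a2, Slc38a3, Slc38a4 and Slc7a2 and the glycine cleavage genes Amt and Gldc were rhythmic in 6 of 6 arms, as Asl and 4.11% of all genes were. In Equal light the carriers peaked at 7.39 to 9.62 h, before Asl, and Gldc at 20.4 h. In histidine and serine breakdown Sds, serine dehydratase, was rhythmic in 6 arms, with a peak at 8.45 h in Equal, 12.8 h in Long and 4.74 h in Short light. Amdhd1, a later step of histidine breakdown, was rhythmic in 5 arms, and 7.93% of all genes were in 5 or more. It peaked at 2.63 h in Equal, 5.94 h in Long and 22.3 h in Short light, beside 0.94, 3.84 and 21.2 h for Hal. Of the same list Ftcd, Shmt2 and Uroc1, the last of which follows Hal, were rhythmic in 0 arms. Among the regulators Cebpb was rhythmic in 6 arms, and Cebpa, Foxo1 and Ppara in 5. Gcgr and Nr3c1 were rhythmic in 0 arms, Creb3l3, Hnf4a, Nfya and Ppargc1a in 1, and the other regulators in 2 to 4. Differences in rhythm between photoperiods were called for 12 of the 15 regulators, 4 of the 9 histidine and serine genes, 9 of the 18 other periportal markers and 9 of the 16 pericentral markers. The last 3 of these counts are near the 49.1% of all genes.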

How the data were processed

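Per the labels' protocols, liver RNA (Trizol, RNeasy) gave stranded poly-A TruSeq libraries, read in pairs by NovaSeq. The submitters' processing notes name STAR, featureCounts, Subread 1.6.2 and mm10 (GRCm38), and neither options nor the normalization step are stated. All values come from a table of log2 CPM that the authors deposited, and whose lowest value, -3.6124, is 0.08176 CPM; taken as a prior of 2.0 reads, it gave whole reads (within 0.05) in 99.42% to 99.73% of values per library, from which the depth was computed. Log2 differences therefore understate changes of very low genes, which no member is.

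Groups came from the sample titles, and replicate numbers only follow the order of deposit. Chi-square over genes was at least 14.33 per degree of freedom in 153 pairs from 1 group, so none was counted as a repeat. Limma 3.58.1 (R 4.3.3) with a variance trend was fitted to the 14397 genes that reached 1 CPM in 3 or more libraries, with 1 mean per group and equal weights in contrasts, or, for F tests of rhythm, a 24 h cosine and sine in each arm. Limma was used in place of a count test because the table holds no counts. Benjamini-Hochberg adjustment ran over all genes, with a threshold of 0.05, and the code was tested on simulated data. Positions are from GENCODE mouse release 21, and 1-based.

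The members and gene lists were chosen with earlier results of these data known. All 10 members were named. From each list were named those with the smallest p (at most 4) for diet and those rhythmic in 6 arms. Other genes that the text singles out were chosen after their values were seen. For rhythm these were Amdhd1, Ftcd, Shmt2, Uroc1 and the regulators rhythmic in fewer than 6 arms. For diet they were the regulators named as not passing. Alternatives were limma-voom on recovered reads, no filter, a filter of 5 CPM in 20 libraries, log2(CPM + 1), median-ratio scaling, robust variances, the library number as a covariate, any difference between times in place of the cosine, and leaving out the 19 libraries or each replicate number. Leaving out the 2 libraries farthest from their groups, or the 2 lowest in Nags (also for correlations within groups), was chosen after seeing the data.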

Additional observations from a re-analysis of the deposited data

Results flagged for a closer look

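Among the 150 sets of 4 libraries (10 genes in 15 groups), 11 held 1 library that lay far from the other 3 by Dixon's criterion, which chance alone meets in about 1 in 20 groups. In HFD Equal light, ZT20 replicate 1 stood low for Nags (4.57 log2 CPM; the others 5.95 to 6.14) and for Cyp2f2 (9.07; the others 9.84 to 9.93), and ZT4 replicate 2 stood low for Cyp2f2 (9.05; the others 9.75 to 9.77). They are the 2 libraries with the highest transcripts of the mitochondrial genome. Also at ZT20 of that arm, replicate 3 was low for Cps1 (11.98; 12.55 to 12.66) and replicate 4 high for Ass1 (11.20; 10.55 to 10.62). Ass1 was low in LFD Equal light at ZT12 (10.73; 11.26 to 11.35) and high in LFD Short light at ZT16 (11.38; 10.83 to 10.91). Cyp2f2 was low in LFD Long light at ZT8 (9.11; the others 9.91 or more) and, in another library, at ZT16 (9.11; 10.09 to 10.20). Hal was low in HFD Long light at ZT8 (8.51; 8.84 to 8.91), and Otc high in LFD Short light at ZT12 (8.91; 8.65 to 8.70).

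The daily rhythm differed between the photoperiods by limma's F test for 9 members, with adjusted p of 9.92e-16 for Asl, 7.1e-07 for Arg1, 8.73e-06 for Hal, 0.000421 for Nags, 0.000596 for Cps1, 0.00471 for Gls2, 0.0241 for Cyp2f2, 0.0275 for Ass1 and 0.0467 for Slc25a15. For Asl, Arg1, Hal, Nags, Cps1 and Gls2 the peaks came later in Long than in Short light by 4.95 ± 1.32 h (SE, Gls2) to 10 ± 1.76 h (Cps1). The peaks of Cps1 in Long light, Cyp2f2 in Short light, Ass1 in Long light and Slc25a15 in Short light are poorly determined. Their amplitudes averaged over the diets did not pass the test.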

How the results depend on the processing

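No paired analysis was possible because replicate numbers follow only the order of deposit and the number in each title belongs to 1 library only. Of the counts of members called, 216 alternatives stayed within 1.5 times the value reported and 30 did not. The shares of all genes in the alternatives are not given here. Long against Equal light gave 0 members, in place of 1, without a filter, with median-ratio scaling, without the 19 libraries, with robust variances, without the 2 farthest libraries and without the 2 lowest in Nags. HFD against LFD in Equal light gave 1 with the library number as a covariate. Without the 19 libraries rhythm was called for 2 members in LFD Equal and 2 in LFD Long light, a rhythm difference between photoperiods for 5, and 3 of the 5 genes of most like profile were shared. A test of any difference between times called 2 in LFD Equal and 2 in HFD Short light.

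Leaving out 1 replicate number at a time gave 1 to 3 members for HFD against LFD, 0 to 1 in Short light and 0 to 1 for Long against Equal light. For rhythm it gave 2 to 6 in LFD Equal, 2 to 4 in LFD Long, 2 to 3 in LFD Short, 0 to 3 in HFD Equal, 1 to 2 in HFD Long and 2 to 5 in HFD Short light, and 5 to 8 for the difference between photoperiods.

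Of single members' results, 1491 were on the same side of the threshold and in the same direction, 96 lost and 14 gained the call, and 13 changed sign, all of them differences that had not passed. Without 1 replicate number, HFD against LFD ranged from -0.0274 (without 3; -0.00103 without 4) to 0.0835 for Asl, from -0.00687 (without 4; -0.00232 without 3) to 0.0316 for Nags, and from -0.069 to 0.0184 (without 1) for Gls2. Long against Equal light ranged from -0.108 to 0.0306 (without 2) for Hal and from -0.0157 (without 3) to 0.0716 for Cyp2f2, which was at -0.0308 without the 19 libraries and -0.0116 without the 2 farthest. Long against Short light ranged for Cyp2f2 from -0.0232 (without 3; -0.0125 without 4) to 0.0319, and was -0.00488 without the 19 libraries and -0.000725 with the library number as a covariate. Otc between diets, over all photoperiods and in Long light, passed in 14 of 14 alternatives. The cause of these changes was not tested, beyond the smaller number of libraries where libraries were left out. Median-ratio scaling moved the libraries by -0.025 to 0.039 on the log2 scale. With 3 or 4 libraries per group and 6 times, the peak times of the members with small amplitudes (Otc, Slc25a15, Ass1 and Cps1 in Long light, Cyp2f2 in Short light) are poorly determined.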
